A study of Danio rerio with 4 samples.

Results

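The genes described here are the ventral Bmp ligands, their feedback inhibitors and their target genes in the zebrafish gastrula: bmp2b, bmp4, bmp7a, szl, bambia, vox, vent, ved, eve1 and id3. They were chosen by name, 10 genes of the 32266 gene rows of the deposited table, and each had at least 1 unique molecular identifier (UMI), as had 8640 rows in all. The 10 names met 11 rows, because 2 rows carry the human-style symbol BMP2. One of these had 0 UMIs in every library, so the values given for bmp2b are those of ENSDARG00000041430, and the tables used do not say which of the BMP2 rows is bmp2b. bambia is listed as BAMBI (ENSDARG00000055381) and szl is ENSDARG00000099637. bmp4 (ENSDARG00000019995) and id3 (ENSDARG00000054823) carry the human-style symbols BMP4 and ID3.

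All cells came from AB-strain embryos at 9 hours post fertilization (hpf), when gastrulation is well under way, and all had been sorted as negative for green fluorescent protein (GFP). The tested cells were taken from embryos mosaic for β-catCA, a constitutively active β-catenin carried by the GFP-positive cells of the same embryos, and their controls were taken from embryos mosaic for GFP without β-catCA. Each kind of mosaic gave 2 lots of cells and 1 CEL-Seq2 library per lot, numbered here as the lots are. The labels do not state the promoter behind β-catCA, the number of embryos per lot or the distance of a sorted cell from a marked one.

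Bmp signalling patterns the embryo from ventral to dorsal. Secreted Bmp dimers bind receptor kinases that phosphorylate Smad proteins, and the signal is highest on the ventral side because the dorsal organizer secretes Chordin, which binds the ligands. Cells with strong signal transcribe the ligand genes themselves, feedback inhibitors, and homeobox repressors that keep organizer genes off. In the zebrafish, maternal β-catenin sets up the organizer at the start of this process, and later Wnt signalling from the margin helps to maintain vox and vent.

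The libraries were of very unequal depth, which sets what can be seen of these genes. β-catCA libraries 1 and 2 held 65098 and 8403 gene UMIs, and control libraries 1 and 2 held 61304 and 59260. Levels are given as UMIs and as counts per 1000000 gene UMIs scaled by trimmed-mean factors (CPM). One UMI stood for 15.2 and 124 CPM in β-catCA libraries 1 and 2, and for 16.1 and 16.5 CPM in control libraries 1 and 2. A count of 0 allows up to 3 UMIs as a one-sided 95% limit, which is 45.7 and 373 CPM in the β-catCA libraries and 48.3 and 49.4 CPM in the control libraries. Intervals on levels are exact two-sided 95% Poisson intervals, so that of a 0 reaches further, to 459 CPM in β-catCA library 2. Both kinds of limit cover counting error alone. Of the 10 genes, 5 had 0 UMIs in β-catCA library 2.

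The comparison asks whether unmarked cells of embryos that also hold β-catCA cells express the ventral Bmp programme at another level than unmarked cells of control mosaics. The 10 genes together held 54 and 8 UMIs in β-catCA libraries 1 and 2, against 74 and 73 UMIs in control libraries 1 and 2. In CPM the sum was 823 (interval 619 to 1074) and 996 (430 to 1962) in the β-catCA libraries, against 1191 (936 to 1496) and 1202 (942 to 1511) in the control libraries. Both β-catCA libraries stood below both control libraries, while the interval of β-catCA library 2 spans those of both controls. That order also held for 23.6% of the single genes that were tested. The mean sum was 910 ± 122 CPM for the β-catCA libraries, against 1197 ± 7.51 CPM for the control libraries (SD, n = 2 each), a log2 ratio of -0.40 as a description without a test. Without β-catCA library 1 the ratio was -0.25, and without β-catCA library 2 it was -0.54. The small SD of the control pair does not show close replicates, because the counting interval of each control sum is far wider. With UMIs pooled over each pair, the β-catCA share of gene UMIs was 0.692 of the control share, a value set mostly by β-catCA library 1. In these bulk samples, fewer ventral cells and less RNA per cell cannot be told apart.

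No member passed the test. Of the 10 genes, 4 (szl, bambia, vox and id3) passed the depth-scaled count filter of edgeR's quasi-likelihood test on 1071 genes. bambia passed it through control library 2 and the shallow β-catCA library 2, where it had 3 UMIs. Of the 4, 0 had an adjusted p under 0.05, where 0.84% of all tested genes were called. At an unadjusted p under 0.05 there was 1 of the 4, szl, where 10.5% of all tested genes were. DESeq2, which called 0.0116% of all genes, limma-voom, which called 0.187%, and edgeR on all 8640 genes with a UMI, which called 0%, also called 0 members. In that last fit 2 members (szl and bambia) had an unadjusted p under 0.05, where 2.55% of all genes did. That share is over genes of every depth, down to a single UMI, whereas the 10.5% is over genes that passed the filter. In DESeq2 the unadjusted p was 0.17 for szl and 0.47 for bambia. All 4 tested members had a fitted change below 0, as did 51.8% of the tested genes. Their median log2 change was -0.92 beside -0.029 over all tested genes, which is a description only, since genes enter the test partly through the group where they are high. szl entered it through its control libraries alone.

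**Figure D1:**
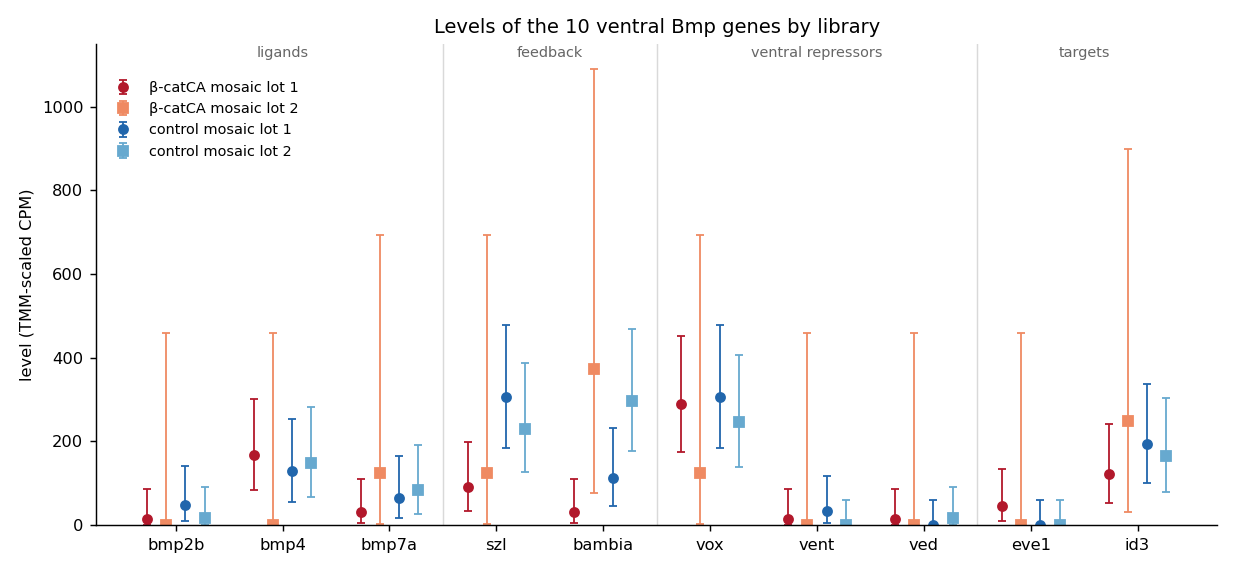
Level of each gene in CPM (vertical axis) in the 4 libraries, with exact 95% Poisson intervals, grouped by role. The wide orange intervals of β-catCA library 2 reflect its 8403 gene UMIs. Among members above the floor in some library, only szl has both β-catCA values, 91.5 and 124 CPM, below both control values, 306 and 231 CPM. The 124 CPM of β-catCA library 2 is 1 UMI, under that library's floor of 373 CPM. Its interval, 3.15 to 694 CPM, holds both control values.

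The ligands held 45 of the 209 UMIs of the 10 genes. bmp4, which encodes a ligand of the ventral domain and later the tailbud, had 11 and 0 UMIs in β-catCA libraries 1 and 2, against 8 and 9 UMIs in control libraries 1 and 2. That is 168 and 0 CPM in the β-catCA libraries, against 129 and 148 CPM in the control libraries. β-catCA library 1 was thus the highest library, and the 0 of β-catCA library 2 stands beside 1.18 UMIs that it would hold at the controls' share of gene UMIs. Its fitted log2 change was -0.076 (SE 0.74), with a 95% interval from -1.53 to 1.37 in edgeR on all genes with a UMI (adjusted p = 0.96), and it turned to 0.23 without β-catCA library 2.

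bmp7a encodes the partner that forms the active heterodimer with Bmp2b, and its loss, like that of bmp2b, dorsalizes the zebrafish embryo. Its counts were 2 and 1 UMIs in the β-catCA libraries, against 4 and 5 UMIs in the control libraries. Its log2 change of -0.94 (SE 1.05) had an interval from -3.00 to 1.13 (edgeR on all genes with a UMI, adjusted p = 0.77), and was 0.12 without β-catCA library 1. bmp2b had 1 and 0 UMIs in the β-catCA libraries against 3 and 1 UMIs in the control libraries, so it lay at or under the floor in every library and no fold is given. Summed, the ligands held 14 and 1 UMIs in the β-catCA libraries, against 15 and 15 UMIs in the control libraries. At the controls' share of gene UMIs the β-catCA libraries would hold 16.2 and 2.09 ligand UMIs. A difference in ligand RNA was not detectable at this depth.

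In β-catCA library 1, most of the shortfall in the sum lay in the feedback inhibitors. szl encodes Sizzled, a secreted Frizzled-related protein that blocks the proteases that cleave Chordin and so limits Bmp signalling. Its counts were 6 and 1 UMIs in the β-catCA libraries, against 19 and 14 UMIs in the control libraries. Its level was 91.5 CPM (interval 33.6 to 199) and 124 CPM (3.15 to 694) in the β-catCA libraries, against 306 CPM (184 to 478) and 231 CPM (126 to 387) in the control libraries. The values of the groups did not overlap, which held for 23.6% of tested genes in this direction. The interval of β-catCA library 2 nevertheless holds both control values, so its 1 UMI does not place it below them. The means were 108 ± 23.3 CPM for the β-catCA libraries, against 268 ± 53.3 CPM for the control libraries (SD, n = 2 each), and the small SD of the β-catCA pair does not show close replicates, because 1 of its values rests on a single UMI. The fitted log2 change was -1.47 (SE 0.61), with a 95% interval from -2.70 to -0.23. Its unadjusted p was 0.021 and its adjusted p 0.39 in edgeR. szl passed the filter of this fit through its control libraries alone, where it is high, so these values are a description only. In edgeR on all genes with a UMI the change was -1.62, with an unadjusted p of 0.028 and an adjusted p of 0.77. DESeq2 gave a change of -1.60, with an unadjusted p of 0.17. In the filtered fit with single libraries left out, the change ran from -1.66 to -1.08. The value of -1.08 is that without β-catCA library 1, where the β-catCA side rests on 1 UMI of szl.

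bambia encodes a membrane protein that resembles a type I receptor without the kinase domain and dampens Bmp signalling. Its counts were 2 and 3 UMIs in the β-catCA libraries, against 7 and 18 UMIs in the control libraries. Its level was 30.5 CPM (interval 3.69 to 110) and 373 CPM (77.0 to 1091) in the β-catCA libraries, against 113 CPM (45.3 to 232) and 296 CPM (176 to 468) in the control libraries. β-catCA library 1 was the lowest library and β-catCA library 2 the highest, so the groups overlap, and the control libraries themselves lay 2.63-fold apart. The fitted log2 change of -1.49 (SE 0.81, edgeR adjusted p = 0.53) was -2.66 without β-catCA library 2 and 0.88 without β-catCA library 1, and it was -0.69 without control library 2. The mean CPM hardly differed, at 202 ± 242 for the β-catCA libraries, against 205 ± 130 for the control libraries (SD, n = 2 each). Such a mean gives the shallow β-catCA library 2 the same weight as β-catCA library 1. With UMIs pooled over each pair, the β-catCA share of gene UMIs was 0.328 of the control share, a value set mostly by β-catCA library 1.

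szl and bambia together held 8 and 4 UMIs in the β-catCA libraries, against 26 and 32 UMIs in the control libraries. At the controls' share of gene UMIs the β-catCA libraries would hold 31.3 and 4.04 of them. The shortfall was thus in β-catCA library 1, and β-catCA library 2 held the number that its depth gives. As a share of the UMIs of all 10 genes, which does not depend on scaling, the pair made up 14.8% in β-catCA library 1 (exact binomial interval 6.62% to 27.1%) and 4 of 8 UMIs in β-catCA library 2 (15.7% to 84.3%), against 35.1% (24.4% to 47.1%) and 43.8% (32.2% to 55.9%) in control libraries 1 and 2. The other 8 genes held 46 and 4 UMIs in the β-catCA libraries, where the controls' share gives 48.1 and 6.20, against 48 and 41 UMIs in the control libraries. The binomial intervals cover counting error within a library, not the spread between libraries. This split of the members was not among the planned comparisons and was not tested.

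**Figure D2:**
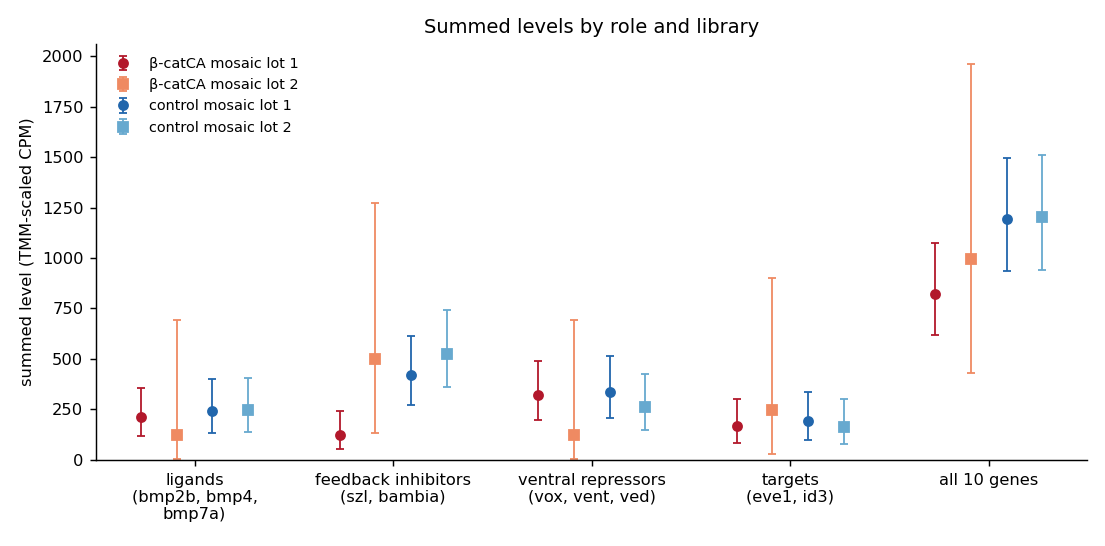
Summed level in CPM (vertical axis) by role and for all 10 genes in the 4 libraries, with exact 95% Poisson intervals. The feedback inhibitors stand at 122 CPM in β-catCA library 1 and at 498 CPM in β-catCA library 2, against 419 and 527 CPM in the control libraries, whereas β-catCA library 1 lies close to both control libraries for the other 3 roles.

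vox, vent and ved encode homeobox repressors that keep organizer genes such as goosecoid and chordin off in ventral cells. vox (ENSDARG00000099761) was the member with the most UMIs, 54 of 209. Its counts were 19 and 1 UMIs in the β-catCA libraries, against 19 and 15 UMIs in the control libraries. Its level was 290 and 124 CPM in the β-catCA libraries, against 306 and 247 CPM in the control libraries, so that β-catCA library 1 lay between the controls. The fitted log2 change was -0.054 (SE 0.50, edgeR adjusted p = 0.99), and the 95% interval ran from -1.07 to 0.96. The sign turned without β-catCA library 2, at 0.065, and without control library 1, at 0.14.

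vent (ENSDARG00000100483) had 1 and 0 UMIs in the β-catCA libraries and 2 and 0 UMIs in the control libraries. ved (ENSDARG00000102389) had 1 and 0 UMIs in the β-catCA libraries and 0 and 1 UMIs in the control libraries. Neither stood above the floor of any library, so the repressor sum of 21 and 1 UMIs in the β-catCA libraries, against 21 and 16 UMIs in the control libraries, is nearly that of vox. vox and vent are direct neighbours with 0 annotated genes between them in RefSeq's GRCz12tu assembly, and the labels do not state how reads shared by such related genes were assigned.

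id3 encodes a helix-loop-helix protein without a DNA-binding domain, and Id genes are direct Smad targets in many vertebrate cells. Its counts were 8 and 2 UMIs in the β-catCA libraries, against 12 and 10 UMIs in the control libraries. Its level was 122 and 249 CPM in the β-catCA libraries, on either side of 193 and 165 CPM in the control libraries. The fitted log2 change was -0.37 (SE 0.63, edgeR adjusted p = 0.91), its interval ran from -1.64 to 0.90, and it was 0.48 without β-catCA library 1. eve1 (ENSDARG00000056012), a homeobox gene of the ventral margin and the future tail, had 3 and 0 UMIs in the β-catCA libraries, against 0 and 0 UMIs in the control libraries. Its 3 UMIs in β-catCA library 1, 45.7 CPM with an interval from 9.43 to 134, are no more than the floor, and no fold is given.

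**Figure D3:**
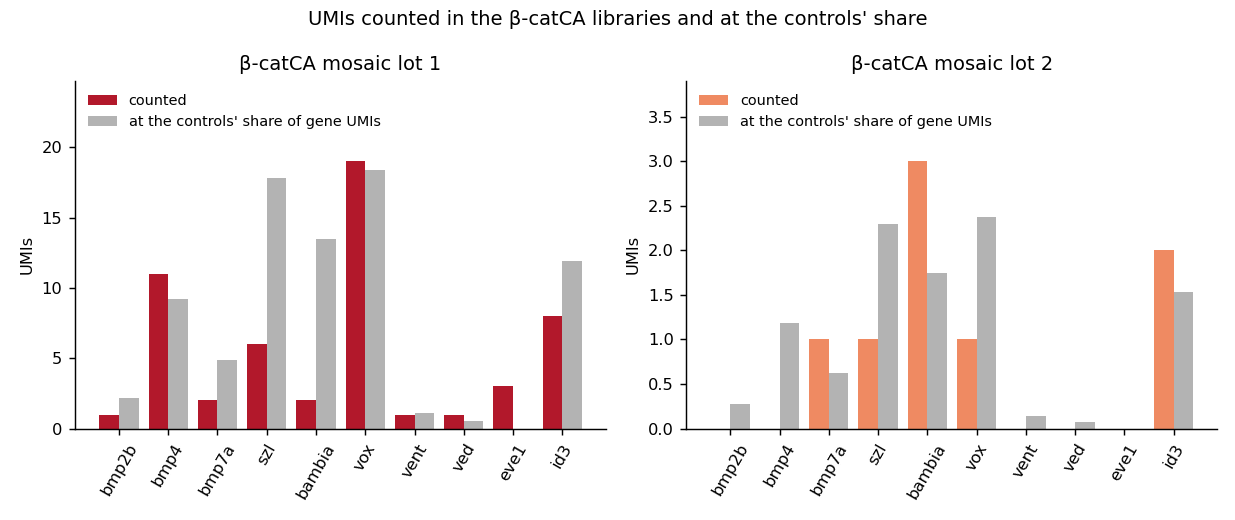
UMIs of each gene counted in β-catCA libraries 1 and 2 (coloured bars) beside the number that each library would hold at the share of gene UMIs found in the pooled control libraries (grey bars). In β-catCA library 1, szl stands at 6 against 17.8 and bambia at 2 against 13.5, while vox stands at 19 against 18.4; in β-catCA library 2 no grey bar exceeds 2.37 UMIs.

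The genes spanned a wide range of levels. In the control mosaics the mean levels were 276 ± 41.7 CPM for vox, 268 ± 53.3 for szl, 205 ± 130 for bambia, 179 ± 20.2 for id3, 138 ± 13.7 for bmp4, 73.4 ± 12.7 for bmp7a and 32.4 ± 22.5 for bmp2b (SD, n = 2 each). UMI counts at the 3′ end do not grow with transcript length, though capture may differ between genes. vox and szl overlapped, as did szl, bambia and id3 with their neighbours in this order, whereas both values of bmp4 lay below those of id3 and above those of bmp7a. In β-catCA library 1, the deeper of its pair, the order was another one: vox had 19 UMIs, bmp4 11, id3 8, szl 6 and bambia 2. The ratio of szl to vox, which is free of scaling, was 0.316 in β-catCA library 1 and 1 on 1 UMI each in β-catCA library 2, against 1 and 0.933 in control libraries 1 and 2. This pair of genes was not among the planned comparisons, and the ratio was not tested.

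Over all genes with a UMI, 8 of the 10 members had a fitted change below 0, where 55.3% of all genes did. The 8 include bmp2b and vent, which lay at or under the floor, and bmp4 at -0.076. They also include bmp7a and id3, whose mean CPM was slightly higher in the β-catCA libraries. It was 77.5 against 73.4 in the control libraries for bmp7a, and 185 against 179 for id3. Such means give the shallow β-catCA library 2 the same weight as β-catCA library 1. Among the members above the floor, the signs of bmp4, bmp7a, bambia, vox and id3 turned with single libraries left out. Only szl and bmp2b had both β-catCA libraries below both control libraries, which is 2 of 10 beside 18.5% of all genes with a UMI. For szl the value of β-catCA library 2 is a single UMI, and its interval holds both control values. For bmp2b the order rests on 15.2 CPM in β-catCA library 1, a single UMI, against 16.5 CPM in control library 2, also a single UMI. The share of members whose groups did not overlap was thus near the background.

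**Figure D4:**
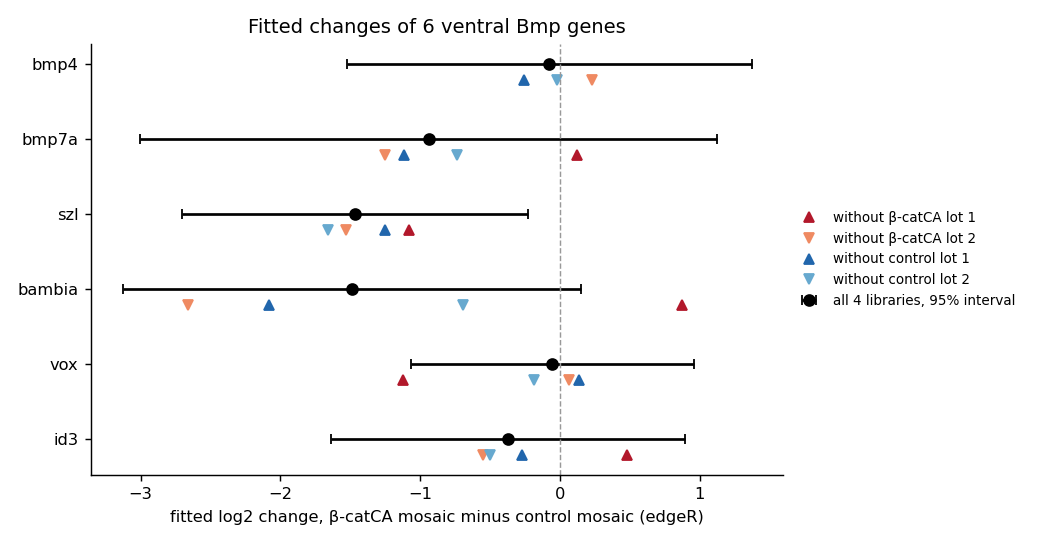
Fitted log2 change of the 6 members above the floor (horizontal axis, β-catCA mosaic minus control mosaic) with its 95% interval over all 4 libraries (black) and with single libraries left out (triangles). Values of bmp4 and bmp7a are from edgeR on all genes with a UMI, those of szl, bambia, vox and id3 from the filtered fit. As drawn, only the interval of szl lies wholly below 0, at -2.70 to -0.23 before adjustment. szl passed the filter of that fit through its control libraries alone. In edgeR on all genes with a UMI, the interval of bambia also lay below 0, at -3.24 to -0.018 before adjustment. The bmp4 value without β-catCA library 1 is not drawn, because the library left had 0 UMIs.

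The other genes of the pathway were mostly too sparse. Of 8 rows for further ligands 1 had a UMI, the organizer ligand gene admp, with 4 and 0 UMIs in the β-catCA libraries and 1 and 2 in the control libraries. Of 11 receptor rows 4 had a UMI and 0 were tested. The type I receptor gene acvr1l had 5 and 0 UMIs in the β-catCA libraries and 8 and 5 in the control libraries, and BMPR1A (matched to bmpr1aa) had 2 and 1 UMIs in the β-catCA libraries and 3 and 0 in the control libraries. Of 14 rows for Smads and their regulators 11 had a UMI and 1 was tested. That was smad5 (SMAD5), the main receptor-regulated Smad of the early zebrafish embryo, with 24 and 6 UMIs in the β-catCA libraries, against 9 and 25 UMIs in the control libraries. Its log2 change of 0.63 (SE 0.49, edgeR adjusted p = 0.72) did not pass, and the control libraries themselves lay at 145 and 412 CPM.

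Of 14 rows for extracellular modulators 4 had a UMI and 1, chrd, was tested. chrd encodes Chordin, the organizer antagonist of the ligands, and had 59 and 10 UMIs in the β-catCA libraries, against 59 and 47 UMIs in the control libraries. Its log2 change was 0.17 (SE 0.33, edgeR adjusted p = 0.92). The 10 ventral genes held 0.915 and 0.800 UMIs per chrd UMI in β-catCA libraries 1 and 2, against 1.25 and 1.55 in control libraries 1 and 2. Per UMI of the whole dorsal and axial list they held 0.36 and 0.471 in the β-catCA libraries, against 0.536 and 0.510 in the control libraries. There β-catCA library 2 lay close to control library 2. None of these ratios depends on scaling, and none was tested. Those of β-catCA library 2 rest on 8 member UMIs, over 10 chrd UMIs or 17 UMIs of the list. The follistatin row FST had 12 and 1 UMIs in the β-catCA libraries and 7 and 1 in the control libraries. Dorsal and axial genes as a list summed to 2287 and 2116 CPM in the β-catCA libraries, against 2222 and 2355 CPM in the control libraries, with 0 of 4 tested genes called. Among them foxa2, a gene of the axial midline, had 22 and 3 UMIs in the β-catCA libraries and 23 and 18 in the control libraries. tbxta, a T-box gene whose RNA is not confined to the axis at this stage, had 22 and 0 UMIs in the β-catCA libraries and 29 and 45 in the control libraries (log2 change -1.07, SE 0.46, edgeR adjusted p = 0.40). frzb, the remaining tested gene of the list, went the other way, with 21 and 3 UMIs in the β-catCA libraries and 5 and 11 in the control libraries (log2 change 1.31, SE 0.54, edgeR adjusted p = 0.39).

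Other Bmp targets and ventral ectoderm regulators had 15 of 20 rows with a UMI, 2 of them tested and 0 called, with a median log2 change of -0.13 over the 2. They summed to 82 and 3 UMIs in the β-catCA libraries, against 96 and 92 UMIs in the control libraries. In CPM this was 1250 (interval 995 to 1552) and 373 (77.0 to 1091) in the β-catCA libraries, against 1546 (1252 to 1887) and 1515 (1221 to 1858) in the control libraries. Here β-catCA library 2 was the lowest library, unlike in the sum of the 10 members, where β-catCA library 1 was. id1, an Id gene like id3, had 26 and 0 UMIs in the β-catCA libraries, against 15 and 19 UMIs in the control libraries, which gave a fitted difference of 0.27 on the log2 scale (SE 0.50, edgeR adjusted p = 0.92). The ectodermal transcription factor gene tfap2a had 13 and 0 UMIs in the β-catCA libraries and 16 and 15 in the control libraries. Its paralog tfap2c had 6 and 1 UMIs in the β-catCA libraries and 13 and 9 in the control libraries, and GATA2 (matched to gata2a) had 7 and 0 in the β-catCA libraries and 11 and 8 in the control libraries. No gene of these lists passed in edgeR with or without the filter.

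**Figure D5:**
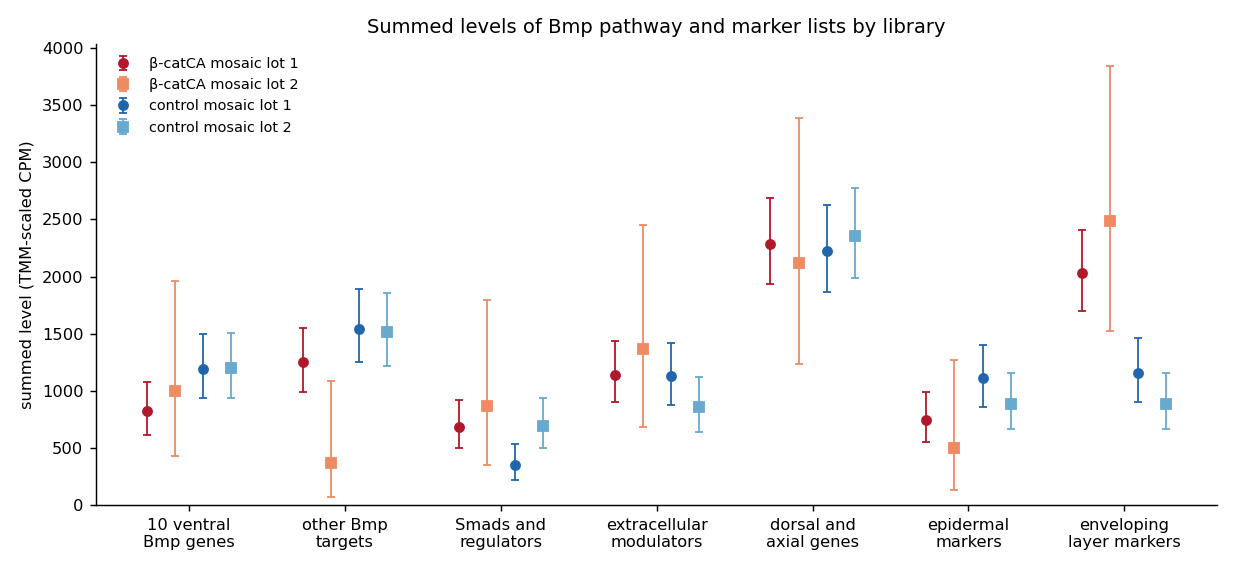
Summed level in CPM (vertical axis) of 7 gene lists in the 4 libraries, with exact 95% Poisson intervals. Shown are the 10 ventral Bmp genes, other Bmp targets, Smads and their regulators, extracellular modulators, dorsal and axial genes, and 2 marker lists. Some genes are in more than 1 list, such as chrd in the extracellular and the dorsal lists. The enveloping layer list stands at 2028 and 2489 CPM in the β-catCA libraries, above 1159 and 889 CPM in the control libraries. Most of its UMIs are those of krt8 and krt18a.1. The dorsal and axial list overlaps between the groups.

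Marker lists of other cell groups were summed in the same way, without a test of any sum. Epidermal markers, all 10 of which had a UMI, summed to 747 and 498 CPM in the β-catCA libraries, against 1111 and 889 CPM in the control libraries. The 498 CPM of β-catCA library 2 is 4 UMIs, with an interval from 136 to 1275 CPM that holds both control values. The list is not independent of the others. tp63, tfap2a, tfap2c, gata2a, gata3, foxi1 and dlx3b are also among the other Bmp targets, and krt4 and cyt1 among the enveloping layer markers. Enveloping layer markers had 11 of 19 rows with a UMI. They summed to 2028 and 2489 CPM in the β-catCA libraries, against 1159 and 889 CPM in the control libraries. agr1, agr2, anxa1c, anxa2a, cldnf, grhl3, krt17 and krt18b stood at 0. Most UMIs of the list came from krt8 and krt18a.1. krt8 had 79 and 13 UMIs in the β-catCA libraries, against 35 and 27 in the control libraries. For krt18a.1 these were 34 and 4, against 19 and 18. The groups overlapped for krt4, the next by UMIs, at 7 and 1 UMIs against 10 and 2. Of 2 tested genes of this list 1, the keratin gene krt8, passed (log2 change 1.37, edgeR adjusted p = 0.038), a call that 10 of 12 alternatives did not make, with log2 changes of 1.13 to 1.69 and adjusted p of 0.019 to 0.995 over the 12. Yolk syncytial layer markers summed to 1525 and 1369 CPM in the β-catCA libraries and 2157 and 2141 CPM in the control libraries, of which apoeb held 99 of 100 and 11 of 11 UMIs in the β-catCA libraries and 131 of 134 and 128 of 130 UMIs in the control libraries, while mxtx2 and hnf4a stood at 0. Endoderm and forerunner markers summed to 290 and 373 CPM in the β-catCA libraries and 515 and 379 CPM in the control libraries, on 3 UMIs in β-catCA library 2. The groups overlapped for neural plate markers, at 1830 and 1743 CPM in the β-catCA libraries and 2479 and 1795 CPM in the control libraries. They also overlapped for ventrolateral mesoderm markers, at 4056 and 2116 CPM in the β-catCA libraries and 3832 and 4759 CPM in the control libraries. Primordial germ cell markers came to at most 5 UMIs in a library, and the groups overlapped. The part of these cell groups in the values of szl and bambia was not tested.

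The genes whose profile over the 4 libraries was closest to the summed level of the 10 members were DKC1, tubb4b, YES1, SETDB1 and KIF22. Likeness was the root mean square distance of centred log2 CPM, which was 0.02 for DKC1, 0.04 for tubb4b and 0.05 for each of the other 3, with a median of 0.48 over 1067 genes. With only 4 libraries, 72 genes lay within 0.2, so the profile of the sum is a common one. DKC1 had 63 and 9 UMIs in the β-catCA libraries, against 84 and 83 UMIs in the control libraries.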

How the data were processed

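CEL-Seq2, which tags each transcript's 3′ end with a UMI, was run on TRIzol RNA of sorted cells, per the labels' protocols. The authors' deposited values are raw UMI counts, 1 row per Ensembl gene, without normalization. The submitters' processing notes name GRCz10, Bowtie2 2.3.1 and HTSeq 0.6.1, and state neither the annotation release nor the UMI collapsing rule. The 5 rows that name no gene (52.4% and 58.1% of all counts in β-catCA libraries 1 and 2, 57.7% and 58.3% in control libraries 1 and 2) were left out of totals and tests.

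Counts were tested in R 4.3.3 with edgeR 4.0.16: trimmed-mean (TMM) factors, filterByExpr with a minimum count of 10 (1071 genes, 77.6% of gene UMIs), the robust quasi-likelihood test and Benjamini-Hochberg adjustment over all tested genes at 0.05. Members that did not pass the filter were taken from that fit on all 8640 genes with a UMI. Fitted changes are on the log2 scale, with β-catCA over control. Alternatives used other factors and filters, DESeq2 1.42.0, limma-voom (limma 3.58.1), the lot number as a block and single libraries left out. The procedure was tested on simulated data. No rank test is given, since 2 against 2 libraries cannot reach a two-sided exact p under 0.333. Separate clutches are not stated for the lots, and the p-values therefore reflect the spread between these libraries, possibly a technical one. The libraries of a group differed beyond counting noise (chi-square per degree of freedom 2.36 for the β-catCA pair and 1.37 for the control pair).

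The members and the gene lists were chosen with earlier results of these data known. Named genes were all members and the 5 genes closest in profile. From each pathway list, up to 4 genes with the most UMIs were named (up to 3 of the dorsal list). Outside these rules, krt8, the other keratin genes given with counts, frzb, apoeb and the markers at 0 were named after their values were seen. Further genes shared between lists were named only to show that overlap. Gene names came from a table that pairs Ensembl IDs with symbols. Sequences are not shown.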

Additional observations from a re-analysis of the deposited data

Results flagged for a closer look

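Among the rows that name no gene, the not-aligned row took 35.8% of everything counted in β-catCA library 2 (exact 95% binomial interval 35.2% to 36.5%), against 21.1% and 22.9% in control libraries 1 and 2. β-catCA library 1 had 19.9%. In β-catCA library 2, 5 of the 10 genes had 0 UMIs; the part of the not-aligned row in their values was not tested.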

How the results depend on the processing

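None of the 10 members was called under any of the 12 alternatives. Members outside the filter were counted only where a fit on all genes with a UMI was made, which limma-voom and the stricter filter did not have. The number of calls over all tested genes, 9, was 1 with upper-quartile factors, 2 with library totals alone, 0 without the filter (220 genes at an unadjusted p under 0.05, and 1 call by DESeq2), 2 with at least 10 UMIs in every library of a group and 2 by limma-voom. The 9 calls were 3 higher and 6 lower; upper-quartile factors left 0 higher and 1 lower, library totals left 0 higher and 2 lower. With single libraries left out, calls ran from 3 (control library 2 omitted) to 17 (β-catCA library 2 omitted), and omitting β-catCA library 1 gave 5; a library left alone in its group is assumed to vary like the others.

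The labels number the lots alike and do not say what a number marks. Deviations of same-numbered lots from the group means had a correlation of -0.0019 over tested genes, a value that includes the shallow β-catCA library 2. With the lot number as a block, calls were 2 over all genes, the summed log2 ratio was -0.40, szl was at -1.58 and bambia at -0.72.

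The summed log2 ratio of -0.40 was -0.26 with upper-quartile factors and ran from -0.54 to -0.25 with single libraries left out. Over the 6 members above the floor, 56 of 64 alternative values kept their sign. The 8 that turned were bmp4 (0.060 with library totals alone, 0.23 without β-catCA library 2), bmp7a (0.12 without β-catCA library 1), bambia (0.88 without β-catCA library 1), vox (0.069 with at least 10 UMIs in every library of a group, 0.065 without β-catCA library 2, 0.14 without control library 1) and id3 (0.48 without β-catCA library 1). The causes were not tested. With single libraries left out, bmp4 ran from -0.26 to 0.23, bmp7a from -1.25 to 0.12, bambia from -2.66 to 0.88, vox from -1.12 to 0.14, id3 from -0.55 to 0.48 and szl from -1.66 to -1.08; bmp4 has no value where the remaining β-catCA library had 0 UMIs. The 4 members at or under 3 UMIs in every library were given no fold, and no alternative value is listed for them. bambia was not among the genes of the stricter filter. The median of all genes moved by -0.18 without β-catCA library 1 and by -0.14 without the filter. Depth limits these genes most in β-catCA library 2, at 124 CPM per UMI.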
